A study of Homo sapiens with 4 samples.

Results

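The genes described here are those of chromatin remodelling and chromatin reading complexes and of the gene families their subunits belong to, some of whose members act outside these complexes. Their transcripts were compared between cells given PATZ1 siRNA and control cells. Members were chosen by a rule on gene symbols, with earlier results of these data known. It took the SMARC, ARID, CHD, INO80, CBX, PHF and BAZ families and 12 further named subunits, 9 of which had a probe. The rule gave 71 genes with 117 probes among 20045 genes that the platform annotation names by 1 symbol. Of these members 58 were tested, among 9435 genes tested in all. Both groups were cultures labelled as HepG2, an established line derived from a human liver tumour, collected 48 h after reverse transfection with 60 pmol of siRNA. The siPATZ1 group (n = 2 arrays) received siRNA against PATZ1, a zinc finger transcription factor that binds G-rich DNA, and the siCTRL group (n = 2 arrays) received a scrambled siRNA. Total RNA was hybridised to Illumina HumanHT-12 v4 BeadChips. The sources do not say if duplicate arrays stem from independent transfections. Each p-value thus covers the array-to-array spread seen here, and that spread may be purely technical.

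DNA in the nucleus is wrapped around histones, and ATP-dependent remodellers slide, eject or exchange these particles. The remodellers fall into the SWI/SNF, ISWI, CHD (with NuRD) and INO80 families, each built around an ATPase with accessory subunits that choose where it acts. Polycomb complexes PRC1 and PRC2 modify histones to keep genes silent, and HP1 proteins bind methylated histones in heterochromatin. SWI/SNF subunit genes such as ARID1A and ARID2 are among the genes recurrently mutated in liver cancer.

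Mean signal was 523 and 555 intensity units on the siPATZ1 arrays, against 503 and 492 on the siCTRL arrays, and 15980 and 15236 of 47323 probes were detected (detection p under 0.01) on siPATZ1 arrays, against 14222 and 14384 on siCTRL arrays. The part of this difference in the results below was not tested. PATZ1 itself was not detected on any array by any of its probes, whose signals were 68.8 to 106 units on siPATZ1 arrays and 58.0 to 106 on siCTRL arrays, so the arrays do not check the knockdown. Of 13 hepatocyte markers with a probe, 8 were detected on no array, among them AFP, APOA1, TTR and SERPINA1, which a HepG2 culture is known to make in quantity. ALB, KRT8, KRT18, CPS1 and FOXA2 (5 of 13) were detected on all 4 arrays, with ALB at 157 to 202 units. Over the whole hepatocyte list the summed signal was 7066 to 7337 units on siPATZ1 arrays and 5263 to 6520 on siCTRL arrays. Most of it was KRT8, at 3493 to 5349 units over the 4 arrays. For the fibroblast and mesenchymal list the sum was 7560 to 7755 units on siPATZ1 arrays and 5486 to 6222 on siCTRL arrays, nearly all of it VIM. The epithelial markers EPCAM and CDH1 and all 3 endothelial markers were detected on no array. The leukocyte sum was 1304 to 1342 units on siPATZ1 arrays and 1294 to 1402 on siCTRL arrays, most of it CD68 (962 to 1111 units). The arrays therefore lack most defining hepatocyte transcripts, and the libraries are named by their labels throughout.

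After PATZ1 siRNA, 8 of the 58 tested members rose and 3 fell at an adjusted p under 0.05 (limma, Benjamini-Hochberg over all genes tested), while 47 did not pass. SMARCE1, SMARCC1 and BRD7 of SWI/SNF, SMARCA1 of ISWI, MTA1 of NuRD, CBX2 and CBX6 of PRC1 and PHF5A were higher, by 1.37-fold (CBX2) to 1.69-fold (SMARCE1). ARID3B, SMARCD3 and ARID4B were lower, by 1.54-fold, 1.51-fold and 1.39-fold. The share that rose was 13.8% of members, against 7.76% of all genes tested, and the share that fell was 5.17%, against 6.94% of all genes. By size alone, 7 members (12.1%) were higher by 1.4-fold or more and 2 (3.45%) were lower by as much, against 8.64% and 7.42% of all genes. Both siPATZ1 arrays lay above both siCTRL arrays for 20 members (34.5%, against 30.1% of all genes) and below both for 15 (25.9%, against 29.9%). The median log2 fold change of the members was 0.03, and their median size without regard to sign was 0.22, against 0.21 for all genes.

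The counts rest on few arrays. With either siPATZ1 array left out, 0 members passed in limma, where the lone siPATZ1 array is assumed to vary like the siCTRL arrays. The threshold here was again an adjusted p under 0.05. Of all genes, 111 rose and 94 fell in the fit without siPATZ1 1, and 109 rose and 84 fell in the one without siPATZ1 2. The median log2 fold change of the members was 0.03 without siPATZ1 1, 0.02 without siPATZ1 2, 0.03 without siCTRL 1 and 0.06 without siCTRL 2. With all 4 arrays, the balance of directions moved with the scaling. There were 13 higher and 2 lower members when arrays were scaled to the same median. That scaling shifted the median of all genes to 0.12 on the log2 scale. On the intensities that the authors scaled to the same mean there were 14 higher and 2 lower. All genes moved in the same way, with 14.2% higher and 4.05% lower under median scaling and 12% higher and 6.78% lower on the authors' scaled intensities. Without a filter on dim probes, 2 of 71 members rose (SMARCE1 and PHF5A) and 0 fell, against 0.948% and 0.733% of all genes.

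**Figure D1:**
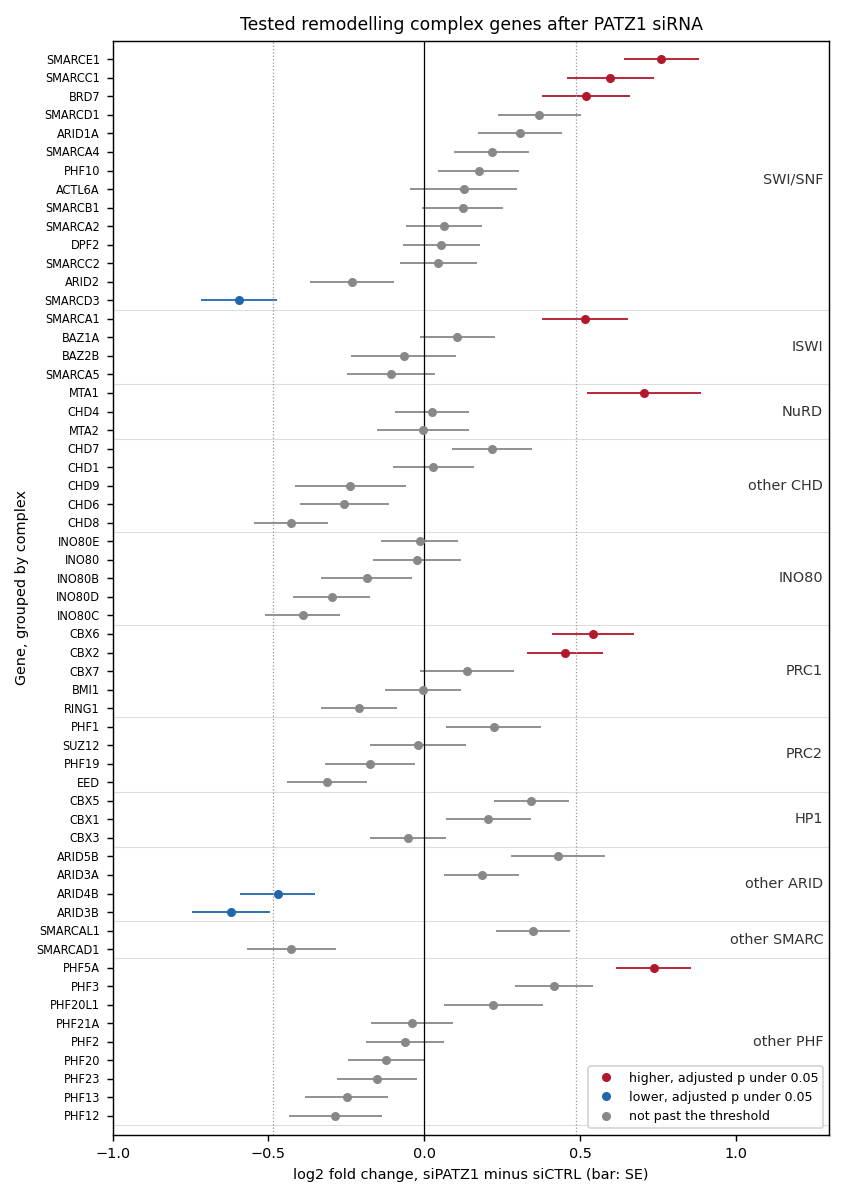
Log2 fold change (siPATZ1 minus siCTRL, x axis) of the 58 tested members, 1 row per gene grouped by complex, with bars of 1 SE from limma and n = 2 arrays in each group. Red points passed an adjusted p of 0.05 and were higher, blue points passed and were lower, and dotted lines mark 1.4-fold; 12 of 14 SWI/SNF points lie right of 0 and all 5 INO80 points lie left of it.

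SWI/SNF had the most tested genes of any complex. Of its 15 genes 14 were tested, with a median log2 fold change of 0.15. Of these 3 rose (21.4%, against 7.76% of all genes), 1 fell (7.14%, against 6.94%) and 10 did not pass. Fitted values were above 0 for 12 of 14, in each of the scalings tried, with ARID2 and SMARCD3 as the exceptions. Among all 9435 genes tested, 4702 were above 0 as reported. The median of all genes itself moved up to 0.12 with median scaling and 0.04 on the authors' scaled intensities. Of all 58 tested members, 41 and 37 were above 0 in these, against 30 as reported. The part of this shift in the SWI/SNF count was not tested. With the mean of probes, without siPATZ1 2 or without siCTRL 1, 11 of 14 SWI/SNF members were above 0. SMARCE1, the HMG-box subunit of the complex core, gave normalised log2 intensities of 9.74 and 9.76 on siPATZ1 arrays, against 9.03 and 8.94 on siCTRL arrays. The groups did not overlap, and the siPATZ1 arrays differed from each other by less than the siCTRL arrays. The log2 fold change of SMARCE1 was 0.76 (SE 0.12, adjusted p = 0.00889). SMARCC1, a scaffold around which the core is assembled, read 10.80 and 10.72 on siPATZ1 arrays and 10.02 and 10.30 on siCTRL arrays. Its siCTRL arrays stood further apart than its siPATZ1 arrays but stayed below them (log2 fold change 0.60, SE 0.14, adjusted p = 0.0298).

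BRD7, a bromodomain subunit of the PBAF form of the complex, read 9.79 and 9.59 on siPATZ1 arrays and 9.06 and 9.29 on siCTRL arrays. The groups were apart, by 0.52 on the log2 scale (SE 0.14, adjusted p = 0.0475), and by 0.57 for its second detected probe. SMARCD3, 1 of 3 paralogous accessory subunits that link the complex to transcription factors, went the other way. Its intensities were 7.77 and 7.68 on siPATZ1 arrays and 8.29 and 8.36 on siCTRL arrays, with no overlap (log2 fold change -0.60, SE 0.12, adjusted p = 0.0205). SMARCD1, its paralog, read 10.61 and 10.58 on siPATZ1 arrays and 10.10 and 10.35 on siCTRL arrays, also with no overlap. That difference did not pass (log2 fold change 0.37, SE 0.13, adjusted p = 0.103), except under 4 of the 17 alternatives, and the difference between the paralogs was not tested.

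The ATPases and the ARID subunits of SWI/SNF did not pass the test. SMARCA4, the ATPase of most SWI/SNF complexes in dividing cells, read 11.40 and 11.36 on siPATZ1 arrays, against 11.21 and 11.12 on siCTRL arrays. These values do not overlap and differed by 0.22 on the log2 scale (SE 0.12, adjusted p = 0.266). The alternative ATPase SMARCA2 read 9.04 and 8.97 on siPATZ1 arrays and 8.89 and 8.98 on siCTRL arrays, which overlap (log2 fold change 0.06, SE 0.12, adjusted p = 0.767). ARID1A, a DNA-binding subunit of the BAF form, read 10.49 and 10.56 on siPATZ1 arrays and 10.09 and 10.34 on siCTRL arrays. Here too the groups stood apart without passing (log2 fold change 0.31, SE 0.13, adjusted p = 0.169), except on the authors' scaled intensities. ARID2, its counterpart in PBAF, read 8.25 and 8.08 on siPATZ1 arrays and 8.30 and 8.49 on siCTRL arrays (log2 fold change -0.23, SE 0.14, adjusted p = 0.285), and both of its detected probes were below 0 (-0.23 and -0.29). For the remaining members PHF10, ACTL6A, SMARCB1, DPF2 and SMARCC2, the log2 fold changes lay between 0.05 for SMARCC2 and 0.17 for PHF10, with adjusted p of 0.400 or more. A second detected probe gave -0.13 for ACTL6A and 0.34 for SMARCB1. ARID1B, the paralog of ARID1A, was not tested because neither of its probes was detected on any array.

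**Figure D2:**
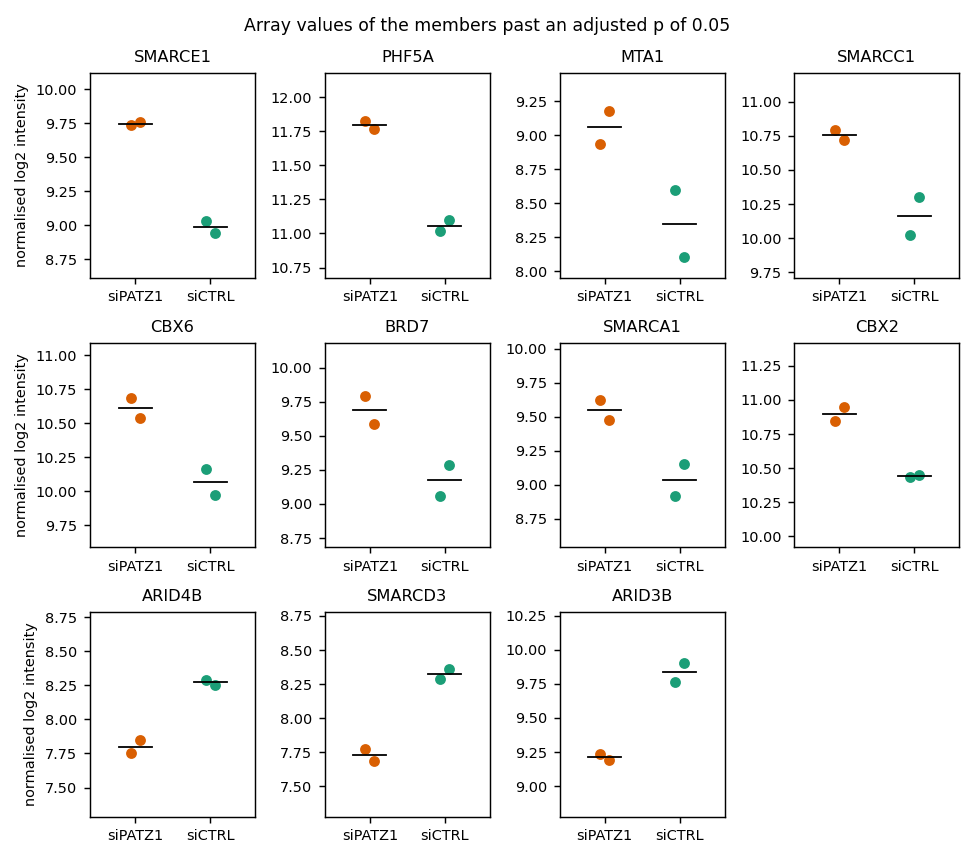
Normalised log2 intensity (y axis, a span of 1.5 in each panel) of the 11 members past an adjusted p of 0.05 on each array, siPATZ1 left and siCTRL right; points are arrays and black lines are means of 2 arrays. The groups do not overlap in any panel, which is a description, since the panels were picked by the test on these arrays. Of all genes tested, 30.1% were higher and 29.9% lower without overlap. The siCTRL points of MTA1 (8.60 and 8.11) are the pair furthest apart.

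Among the ISWI genes, 1 of 4 tested members rose, against 7.76% of all genes. SMARCA1, an ISWI ATPase that drives the NURF remodeller, read 9.63 and 9.47 on siPATZ1 arrays and 8.92 and 9.15 on siCTRL arrays. No siCTRL array reached the siPATZ1 arrays, and the log2 fold change was 0.51 (SE 0.14, adjusted p = 0.0443). A second SMARCA1 probe gave 0.31, and the mean over both probes did not pass. SMARCA5, the other ISWI ATPase, read 8.63 and 8.70 on siPATZ1 arrays and 8.62 and 8.92 on siCTRL arrays, which overlap (log2 fold change -0.11, SE 0.14, adjusted p = 0.654, and 0.03 with median scaling). BAZ1A, the partner of SMARCA5 in the nucleosome-spacing complex ACF, read 9.14 and 9.16 on siPATZ1 arrays and 9.09 and 8.999 on siCTRL arrays. They differed by 0.11 on the log2 scale (SE 0.12, adjusted p = 0.592) by the probe used and 0.40 by the other, so the probes differ in size. BAZ2B, a bromodomain protein that pairs with ISWI ATPases, gave -0.07 (SE 0.17) with overlapping arrays. BAZ2A was not detected on any array.

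In NuRD, which joins a CHD ATPase to histone deacetylases, 1 of 3 tested members rose, against 7.76% of all genes. MTA1, a scaffold that recruits the deacetylases, read 8.93 and 9.18 on siPATZ1 arrays and 8.60 and 8.11 on siCTRL arrays. The groups were apart, but the siCTRL arrays differed from each other by more than for any other member that passed. The log2 fold change was 0.71 (SE 0.18, adjusted p = 0.0402), and it was 0.46 and did not pass without siCTRL 2. MTA2, the second MTA scaffold, read 10.34 and 10.56 on siPATZ1 arrays and 10.32 and 10.59 on siCTRL arrays, and the groups overlapped (log2 fold change -0.0048, SE 0.15, adjusted p = 0.987). CHD4, the main NuRD ATPase, read 10.43 and 10.46 on siPATZ1 arrays and 10.38 and 10.46 on siCTRL arrays. Its value of 0.02 (SE 0.12, adjusted p = 0.912) was -0.07 by its second probe. The signs of MTA2 and CHD4 turned with the scaling or with the choice of probes. The ATPase paralogs CHD3 and CHD5 were not tested, and the 2 probes of CHD3 were not above background on any array.

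None of the other CHD remodellers passed (0 of 5 tested). An unadjusted p under 0.05 was reached by 1 of them, against 2933 of all 9435 genes. CHD8, a remodeller that restrains beta-catenin target genes, came nearest. It read 9.54 and 9.60 on siPATZ1 arrays and 9.98 and 10.02 on siCTRL arrays, so the groups were apart by several times the spread within either (log2 fold change -0.43, SE 0.12, adjusted p = 0.0507). CHD8 passed under 5 of the 17 alternatives. CHD6 read 8.06 and 7.75 on siPATZ1 arrays and 8.18 and 8.15 on siCTRL arrays. The siPATZ1 arrays of CHD6 were the lower ones, yet its 2 probes gave -0.26 and 0.07 (adjusted p = 0.263 for the probe used). CHD7 (0.22), CHD1 (0.03) and CHD9 (-0.24) did not pass either, and CHD2 was not detected.

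No INO80 member passed (0 of 5). An unadjusted p under 0.05 was reached by 2 of them, against 2933 of all 9435 genes. All 5 fitted values were below 0, with a median of -0.18, whereas INO80 and INO80E were above 0 with median scaling (0.12 and 0.13) and on the authors' scaled intensities (0.04 and 0.05). With the mean of probes, and without siPATZ1 1, siCTRL 1 or siCTRL 2, 1 of the 5 was above 0. INO80C, a subunit that pairs with the actin-related protein ACTR5, read 8.38 and 8.34 on siPATZ1 arrays and 8.79 and 8.71 on siCTRL arrays. The groups did not overlap, and the adjusted p was 0.0670 (log2 fold change -0.39, SE 0.12). INO80D read 8.08 and 8.05 on siPATZ1 arrays and 8.29 and 8.43 on siCTRL arrays. Its 2 probes gave -0.30 and -0.26 and did not pass (adjusted p = 0.147). The ATPase INO80 read 8.09 and 8.06 on siPATZ1 arrays and 7.94 and 8.25 on siCTRL arrays, so its siPATZ1 arrays lay between the siCTRL arrays (log2 fold change -0.02, SE 0.14, adjusted p = 0.932). A second detected INO80 probe gave 0.13. INO80B was at -0.18 (SE 0.15) and INO80E at -0.02 (SE 0.12).

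In PRC1, 2 of 5 tested members rose, against 7.76% of all genes. Both were chromodomain proteins, the subunits that read methylated histone H3 and bring PRC1 to chromatin. CBX6 read 10.68 and 10.54 on siPATZ1 arrays and 10.17 and 9.97 on siCTRL arrays, with no overlap (log2 fold change 0.54, SE 0.13, adjusted p = 0.0347). CBX2 read 10.84 and 10.95 on siPATZ1 arrays and 10.44 and 10.45 on siCTRL arrays. The siCTRL arrays of CBX2 were nearly equal, and the log2 fold change was 0.45 (SE 0.12, adjusted p = 0.0446) by the probe used and 0.39 by the other. As a mean over both probes CBX2 did not pass. CBX7, another protein of that kind, was at 0.14 (SE 0.15) with overlapping arrays. RING1, a ubiquitin ligase for histone H2A, read 11.38 and 11.39 on siPATZ1 arrays and 11.66 and 11.53 on siCTRL arrays. The siPATZ1 arrays were the lower ones without passing (log2 fold change -0.21, SE 0.12, adjusted p = 0.283). BMI1, the RING finger partner of that ligase, read 9.91 and 9.79 on siPATZ1 arrays and 9.86 and 9.85 on siCTRL arrays. The difference was -0.0033 on the log2 scale (SE 0.12, adjusted p = 0.990), and the siCTRL arrays lay between the siPATZ1 arrays.

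PRC2, which methylates histone H3, had 0 of 4 members past the threshold. An unadjusted p under 0.05 was reached by 1, against 2933 of all 9435 genes. EED, the subunit that binds the methyl mark, read 8.44 and 8.24 on siPATZ1 arrays and 8.65 and 8.66 on siCTRL arrays. Both siPATZ1 arrays were lower, but further apart from each other than the siCTRL arrays (log2 fold change -0.31, SE 0.13, adjusted p = 0.144). SUZ12, the scaffold of the complex, read 12.11 and 11.89 on siPATZ1 arrays and 11.86 and 12.18 on siCTRL arrays, which overlap (log2 fold change -0.02, SE 0.15, adjusted p = 0.948, and 0.06 with median scaling). PHF1, a Polycomb-like accessory protein, read 6.74 and 6.94 on siPATZ1 arrays and 6.78 and 6.46 on siCTRL arrays. These overlap too (log2 fold change 0.22, SE 0.15, adjusted p = 0.358). PHF19, another Polycomb-like protein, had 3 detected probes at -0.17, 0.06 and 0.42, a spread of 0.60 that exceeds the fitted value of -0.17.

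HP1 had 0 of 3 members past the threshold, with 1 past an unadjusted p of 0.05, against 2933 of all 9435 genes. CBX5 (HP1 alpha) read 9.81 and 9.75 on siPATZ1 arrays and 9.40 and 9.47 on siCTRL arrays. The groups were apart (log2 fold change 0.34, SE 0.12, adjusted p = 0.0952), and CBX5 passed with median scaling and on the authors' scaled intensities. CBX1 (HP1 beta) read 9.25 and 8.98 on siPATZ1 arrays and 8.92 and 8.90 on siCTRL arrays. Its siPATZ1 arrays were the higher ones and wide apart (log2 fold change 0.21, SE 0.14, adjusted p = 0.347). CBX3 (HP1 gamma) had 1 probe at -0.05 and 1 at 0.35.

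The ARID proteins outside SWI/SNF bind DNA through the same fold, and 2 of the 4 tested fell, against 6.94% of all genes. ARID3B, a DNA-binding regulator with a role in cell growth, read 9.24 and 9.19 on siPATZ1 arrays and 9.77 and 9.91 on siCTRL arrays. The groups did not overlap (log2 fold change -0.62, SE 0.12, adjusted p = 0.0190). ARID4B, a subunit of the SIN3 histone deacetylase complex, read 7.75 and 7.85 on siPATZ1 arrays and 8.29 and 8.25 on siCTRL arrays. The groups did not overlap and the log2 fold change was -0.47 (SE 0.12, adjusted p = 0.0394). The other 2 detected ARID4B probes gave -0.23 and -0.14, and the mean over its probes did not pass. ARID5B, which works with the demethylase PHF2, read 8.82 and 8.63 on siPATZ1 arrays and 8.45 and 8.14 on siCTRL arrays, apart but not past the threshold (log2 fold change 0.43, SE 0.15, adjusted p = 0.0944), which it passed under 3 of the 17 alternatives. ARID3A, a paralog of ARID3B, was at 0.18 (SE 0.12, adjusted p = 0.344), and the difference between these paralogs was not tested. ARID3C and ARID5A were not detected.

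The SMARC genes outside the complexes are single ATPases of the SNF2 kind, and neither passed. SMARCAD1, which helps to restore chromatin behind replication, read 7.77 and 7.83 on siPATZ1 arrays and 8.38 and 8.08 on siCTRL arrays (log2 fold change -0.43, SE 0.14, adjusted p = 0.0833). SMARCAL1, an annealing helicase that protects replication forks, read 8.38 and 8.36 on siPATZ1 arrays and 8.06 and 7.99 on siCTRL arrays (log2 fold change 0.35, SE 0.12, adjusted p = 0.0895). For both the arrays of the groups did not overlap, in opposite directions.

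The PHD finger genes joined the list by symbol and are the most mixed in role. Of 9 tested outside PRC2 and SWI/SNF, 1 rose and 0 fell, against 7.76% and 6.94% of all genes. That gene, PHF5A, encodes a subunit of the SF3b part of the spliceosome and not of a remodeller. PHF5A read 11.82 and 11.76 on siPATZ1 arrays and 11.02 and 11.10 on siCTRL arrays, far apart against the spread within each group. By the probe used it was 0.74 higher on the log2 scale (SE 0.12, adjusted p = 0.00988), and by the other 0.86. PHF3, a regulator of RNA polymerase II, read 10.54 and 10.53 on siPATZ1 arrays and 10.03 and 10.20 on siCTRL arrays. The groups were apart (log2 fold change 0.42, SE 0.13, adjusted p = 0.0644), PHF3 passed under 6 of the 17 alternatives, and its second probe gave 0.23. The other 7 (PHF2, PHF12, PHF13, PHF20, PHF20L1, PHF21A and PHF23) lay between -0.28 for PHF12 and 0.22 for PHF20L1, with adjusted p of 0.236 or more. PHF6, PHF7, PHF8, PHF14, PHF21B and PHF24 were not tested.

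The 13 untested members had 21 probes with signals of 58.9 to 140 units, and the lowest detection p among them was 0.00909, for 1 PHF6 probe on 1 array. Where a gene is not above background, no statement about its level can be made from these arrays. Probes of different genes differ in brightness for reasons other than abundance, so intensities were compared only within a probe. Of the 18 members with several detected probes, 11 had all probes on the same side of 0 and 7 did not, and 0 had probes past 1.4-fold in opposite directions. All 5 members past the threshold that had several detected probes (PHF5A, BRD7, CBX2, SMARCA1 and ARID4B) had them on the same side.

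**Figure D3:**
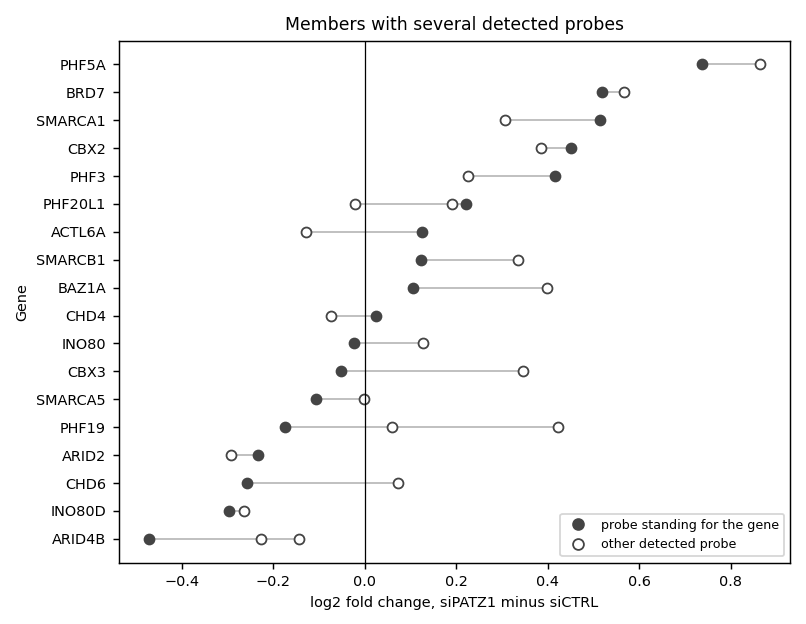
Log2 fold change (siPATZ1 minus siCTRL, x axis) of each detected probe for the 18 members with several, 1 row per gene; filled points are the brightest probe, which stands for the gene, and open points are the others. PHF5A and BRD7 probes lie close together, while those of PHF19 span -0.17 to 0.42.

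Partner subunits that the symbol rule leaves out were counted from a list of 63 genes, of which 52 were tested, 5 rose and 3 fell (9.62% and 5.77%, near the shares of all genes). In NuRD, the deacetylase HDAC1 rose. Its intensities were 12.81 and 12.75 on siPATZ1 arrays and 12.20 and 12.11 on siCTRL arrays (log2 fold change 0.62, SE 0.12, adjusted p = 0.0174). GATAD2A, which tethers the CHD ATPase to NuRD, was also higher (0.52, SE 0.14, adjusted p = 0.0434). RBBP4, a histone chaperone shared by NuRD and PRC2, fell by 0.64 on the log2 scale (SE 0.18, adjusted p = 0.0484) by its brightest probe, while its other 2 detected probes gave -0.01 and 0.08.

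Among the Polycomb partners, the PRC2 cofactors AEBP2 and JARID2 rose. AEBP2 read 8.72 and 8.61 on siPATZ1 arrays and 7.96 and 7.92 on siCTRL arrays (log2 fold change 0.73, SE 0.12, adjusted p = 0.0105), and JARID2 was at 0.50 (SE 0.12, adjusted p = 0.0373). The methyltransferase EZH2 read 8.56 and 8.68 on siPATZ1 arrays and 8.98 and 8.91 on siCTRL arrays by its brightest probe. The groups were apart but not past the threshold (log2 fold change -0.32, SE 0.12, adjusted p = 0.122). The other detected EZH2 probes gave 0.24 and 0.02. PCGF1 and PCGF2, which are RING finger proteins of the same family as BMI1, fell by 0.53 and 0.54 on the log2 scale (SE 0.13 each, adjusted p = 0.0383 and 0.0327). PCGF5 and PCGF6 of that family lay the other way without passing (log2 fold change 0.52, adjusted p = 0.0692, and 0.23, adjusted p = 0.276). The other detected PCGF6 probes gave 0.77 and 0.16. Outside Polycomb and NuRD, BCL7B, a small SWI/SNF subunit, was detected on both siPATZ1 arrays and on neither siCTRL array. It entered the test only through the arrays on which it was brighter, so its place among the 5 that rose is a description. In the mean it was at least 1.08-fold higher on siPATZ1 arrays, and this bound was not tested. The bound is set by the lowest detected signal of the siCTRL arrays (6.33 to 6.37 on the log2 scale), and siPATZ1 2 (6.19) lay below that signal. The adjusted p of BCL7B (0.0239, limma) belongs to a fit that used siCTRL signals not above background. None of the 15 tested INO80, SRCAP and TIP60 partners and none of the 3 tested ISWI partners passed. An unadjusted p under 0.05 was reached by 2 and 0 of them, against 2933 of all 9435 genes. Leaving BCL7B aside, none of the partners that passed did so without siPATZ1 1 or without siPATZ1 2.

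PATZ1 is known to bind G-rich DNA, so the promoters of the members that passed were searched for G-rich words in RefSeq windows of GRCh38.p14, from 250 bases before to 50 bases after the annotated start. The words searched, on both strands, were GGGAGGG and GGGGAGGTG, the longer being the word that the study mutated in a reporter, and neither word contains the other. Windows were found for 7 of the 11 members (ARID4B, BRD7, CBX6, MTA1, SMARCA1, SMARCD3 and SMARCE1), and GGGAGGG was present in 4 of these 7. The sites are shown because they lie in members that moved in both directions: MTA1, CBX6 and BRD7 rose and SMARCD3 fell. Capitals mark the word, read 5′ to 3′ on the strand of the gene, so that CCCTCCC is the word on the opposite strand.
MTA1 (chr14:105419782-105419822, plus strand): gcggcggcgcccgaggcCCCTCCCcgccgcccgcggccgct
MTA1 (chr14:105419836-105419876, plus strand): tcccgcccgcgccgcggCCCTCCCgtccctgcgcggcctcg
CBX6 (chr22:38872356-38872396, minus strand): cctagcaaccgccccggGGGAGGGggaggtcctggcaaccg
BRD7 (chr16:50369211-50369238, minus strand): agaaGGGAGGGaagtggagacggaggga
SMARCD3 (chr7:151248679-151248719, minus strand): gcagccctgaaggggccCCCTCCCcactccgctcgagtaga

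The first base of the word lay 28 bases before and at base 27 after the start in MTA1, 163 bases before it in CBX6, 246 before it in BRD7 and 8 before it in SMARCD3, in 1 of the 3 start windows of that gene. SMARCE1, SMARCA1 and ARID4B did not hold it in these windows. Counting a gene when any of its windows held the word, GGGAGGG was present in 26 of 46 tested members with a window (56.5%), in 22 of the 39 that did not pass (56.4%), in 38.8% of 7767 tested genes and in 26.6% of all 35116 windows. GGGGAGGTG was in 0 of the 7 members that passed, in 2 of the 46 (4.35%), in 2.76% of the tested genes and in 1.64% of all windows. A match in these letters is a description and does not show binding.

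The member counts under every processing and with each array left out are plotted together. SMARCE1 and PHF5A passed under 14 of 17 alternatives, ARID3B and SMARCD3 under 13, SMARCC1 under 12, CBX6 under 11, BRD7 and MTA1 under 10, SMARCA1 under 9, CBX2 under 8 and ARID4B under 7. Besides those named above, SMARCAL1 passed under 2 alternatives and INO80C, SMARCAD1 and CHD9 under 1 each. No member that passed changed sign under any of them.

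**Figure D4:**
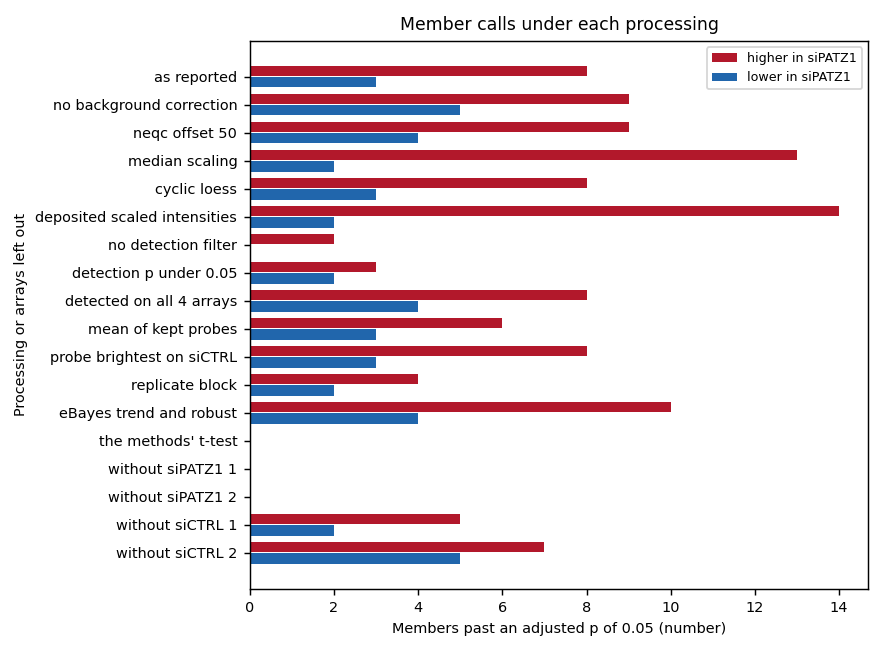
Number of members past an adjusted p of 0.05 (x axis), higher (red) and lower (blue) in siPATZ1 arrays, as reported and under each of 17 alternatives in processing or with 1 array left out. The bars run between 0 and 14 for higher and between 0 and 5 for lower members, and the rows without bars are the methods' t-test and the fits without either siPATZ1 array.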

How the data were processed

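The authors deposited raw probe intensity, linear and neither background-corrected nor normalized, and a detection p-value that ranks each probe among the negative controls of the array. A second deposited table held intensity scaled by the authors to the same mean and was used as an alternative. The submitters' processing notes name GenomeStudio. Unscaled intensities were processed in R 4.3.3 with limma 3.58.1: neqc (normexp from detection p-values, offset 16, quantile normalization, log2), then lmFit and eBayes with 2 residual and 5.73 prior degrees of freedom, Benjamini-Hochberg adjusted over 9435 genes. Probes entered when both siPATZ1 or both siCTRL arrays had detection p-values below 0.01, and the brightest such probe stood for a gene. With 4 arrays, their number limits the precision. Probes were named from the platform annotation, symbols updated through RefSeq.

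Members with values on every array are those past an adjusted p of 0.05, the 2 smallest p-values of each group, and fixed ATPases and scaffolds; a few others were added after their values were seen. Members, groups and lists were chosen with earlier results of these data known. Of the 12 genes the rule names singly, 9 were analysed here. Alternatives covered background correction, normalization, filter, probe choice, test and each array left out.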

Additional observations from a re-analysis of the deposited data

How the results depend on the processing

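Member counts at an adjusted p under 0.05 are given as higher and lower in siPATZ1, against 8 and 3 as reported. The share of all genes tested follows each pair, against 7.76% and 6.94% as reported. They were 9 and 5 without background correction (9.43% and 9.13%), 13 and 2 with median scaling (14.2% and 4.05%), 14 and 2 on the authors' scaled intensities (12% and 6.78%), 2 and 0 of 71 members without a detection filter (0.948% and 0.733%), 3 and 2 of 62 with detection p under 0.05 (5.16% and 4.61%), 4 and 2 with the replicate block (6.17% and 5.16%), and 0 and 0 by the methods' t-test after adjustment (0.0106% and 0%, with 7 and 5 members at the unadjusted threshold, 3 and 2 of them past 1.4-fold). In the other processing alternatives they were 6 to 10 and 3 to 4 (7.09% to 9.27% and 7.01% to 8.8%). For the t-test, the share of all genes at the unadjusted threshold was not counted. At 1.4-fold, against 7 and 2, median scaling gave 13 and 0, no background correction 5 and 1, and the authors' scaled intensities 8 and 1. Of all 9435 genes, 815 and 700 passed 1.4-fold as reported and 1339 and 375 with median scaling. Without background correction 441 and 365 did, and 570 and 280 on the authors' scaled intensities. Leaving out 1 array gave 5 to 8 higher and 2 to 5 lower members by 1.4-fold, against 884 to 987 and 763 to 967 of all genes. The replicate numbers pair only in name: same-numbered arrays deviated from their group means with a correlation of -0.03, and the replicate block is given as a setting only. Why these counts differ was not tested. Without a detection filter the number of genes tested was 20045.

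No member past the threshold changed sign, but members near 0 did. With median scaling the log2 fold change was 0.092 for CBX3, 0.12 for INO80, 0.13 for INO80E, 0.029 for SMARCA5, 0.064 for BAZ2B, 0.14 for MTA2, 0.0031 for PHF20, 0.080 for PHF2, 0.10 for PHF21A, 0.14 for BMI1 and 0.057 for SUZ12. With cyclic loess it was 0.016 for MTA2 and 0.0058 for BMI1. On the authors' scaled intensities it was 0.028 for CBX3, 0.036 for INO80, 0.047 for INO80E, 0.075 for MTA2, 0.0088 for PHF2, 0.036 for PHF21A and 0.073 for BMI1. As a mean of probes it was 0.15 for CBX3, 0.052 for INO80, -0.025 for CHD4, 0.10 for PHF19 and -0.00062 for ACTL6A. Leaving out 1 array gave a range of -0.11 to 0.36 for ACTL6A, -0.25 to 0.12 for BAZ2B, -0.064 to 0.055 for BMI1, -0.11 to 0.0079 for CBX3, -0.040 to 0.32 for CBX7, -0.075 to 0.13 for CHD1, -0.017 to 0.069 for CHD4, -0.50 to 0.021 for CHD9, -0.18 to 0.13 for INO80, -0.084 to 0.052 for INO80E, -0.14 to 0.13 for MTA2, -0.15 to 0.068 for PHF21A, -0.26 to 0.041 for SMARCA5, -0.017 to 0.11 for SMARCC2 and -0.18 to 0.14 for SUZ12. Signal over background limits the rest: 13 members were too dim to test, and with 2 arrays in each group a change of about 1.4-fold lies near the size that passed.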
